A study of Oryza sativa with 12 samples.

Results

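The 6 arrays of well-watered rice leaves fell into sets of 3 by their signal for LHY, the myb-type transcription factor of the plant clock. The LHY-high set held osnox2 control replicates 1 and 2 and WT control replicate 1. The LHY-low set held osnox2 control replicate 3 and WT control replicates 2 and 3. The arrays were chosen by the measured signal of a single LHY probe set, with more than 13 for the LHY-high set and less than 9 for the LHY-low set (log2 signal). The lowest LHY-high array stood at 13.51 and the highest LHY-low array at 8.26, with no control array between the limits. These 6 are among 12 arrays of the series, and the other 6, which the rule did not use, come from droughted plants. Because the arrays were sorted by a measured transcript, every difference between the sets is a description with no test, and each value that follows is given in the array order above.

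The plants were WT rice, Oryza sativa ssp. Japonica cv. Dongjin, and osnox2, a T-DNA insertion mutant, aged 2.5 months. A single insertion mutant was profiled, so a genotype difference is a difference from that mutant. Control leaves were cut at day 0 with soil moisture at 47.3 ± 1.9%, and drought leaves at day 15 with soil moisture at 8.5 ± 2.1%, so water supply and harvest day cannot be told apart. An osnox2 and a WT plant shared each pot, in a greenhouse with 16 h of light and 8 h of darkness, and the sampled tissue was the youngest fully expanded leaf. The 3 replicates of each of the 4 groups are labelled as biological, the labels do not say that a replicate number marks a pot, and they give no hour of harvest. The gene disrupted in osnox2 was not matched to a probe set by name and is not analysed here.

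The plant clock is a loop of transcription factors that repress each other in turn through the day. In Arabidopsis LHY peaks around dawn and represses evening genes. Among those are LUX, known in rice as PCL1, a DNA-binding subunit of the evening complex, and TOC1, the pseudo-response regulator known in rice as PRR1, which peaks around dusk and represses LHY. Genes for light capture, pigment synthesis, sugar handling and flowering time are known to follow the clock and the light.

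The evening genes ran opposite to LHY. PCL1 (LOC4326391, chromosome 1, 43526912-43528211) read 6.16, 5.59 and 6.08 in the LHY-high arrays, against 14.71, 14.68 and 14.99 in the LHY-low arrays. The sets lay 8.52 apart at their closest arrays, and the means differed by -8.85 (LHY-high minus LHY-low, log2), the widest gap in either direction among genes with a name. PRR1 (LOC4330000, chromosome 2, 25052018-25055115) read 9.13, 9.29 and 9.34 in the LHY-high arrays, against 12.67, 12.45 and 12.54 in the LHY-low arrays. LHY itself (LOC4344703, chromosome 8, 3407602-3420147), which defines the sets and so checks nothing, read 13.51, 13.57 and 13.79 in the LHY-high arrays, against 8.26, 7.43 and 7.31 in the LHY-low arrays.

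The remaining members of the clock list differed less than these 3. PRR73, a pseudo-response regulator, read 14.47, 14.38 and 14.37 in the LHY-high arrays and 13.57, 13.52 and 13.72 in the LHY-low arrays, a difference of 0.80, and its dimmer probe set differed by 1.53 with a gap of 1.36. GI, the flowering and clock protein GIGANTEA, read 13.80, 13.71 and 13.83 in the LHY-high arrays and 13.96, 14.10 and 14.32 in the LHY-low arrays, a difference of -0.35. PRR95 overlapped, with 14.36, 14.33 and 14.37 in the LHY-high arrays and 14.48, 14.35 and 14.43 in the LHY-low arrays. PRR37, a pseudo-response regulator that delays heading in long days, has probe sets that disagree: the brighter one was 0.49 higher in the LHY-high arrays and the dimmer one differed by -1.56. Of the 7 clock genes measured, 3 were higher (LHY, PRR73 and PRR37) and 3 lower in the LHY-high arrays without overlap, where 18.9% were higher and 30.2% lower among all 15392 genes. By a gap of at least 1, the distance between the closest arrays of the sets, LHY was higher and PCL1 and PRR1 lower, where 3.72% were higher and 4.81% lower among all genes. Nothing is read from these counts, since LHY was placed by the rule itself and the probe sets of PRR37 disagree.

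**Figure D1:**
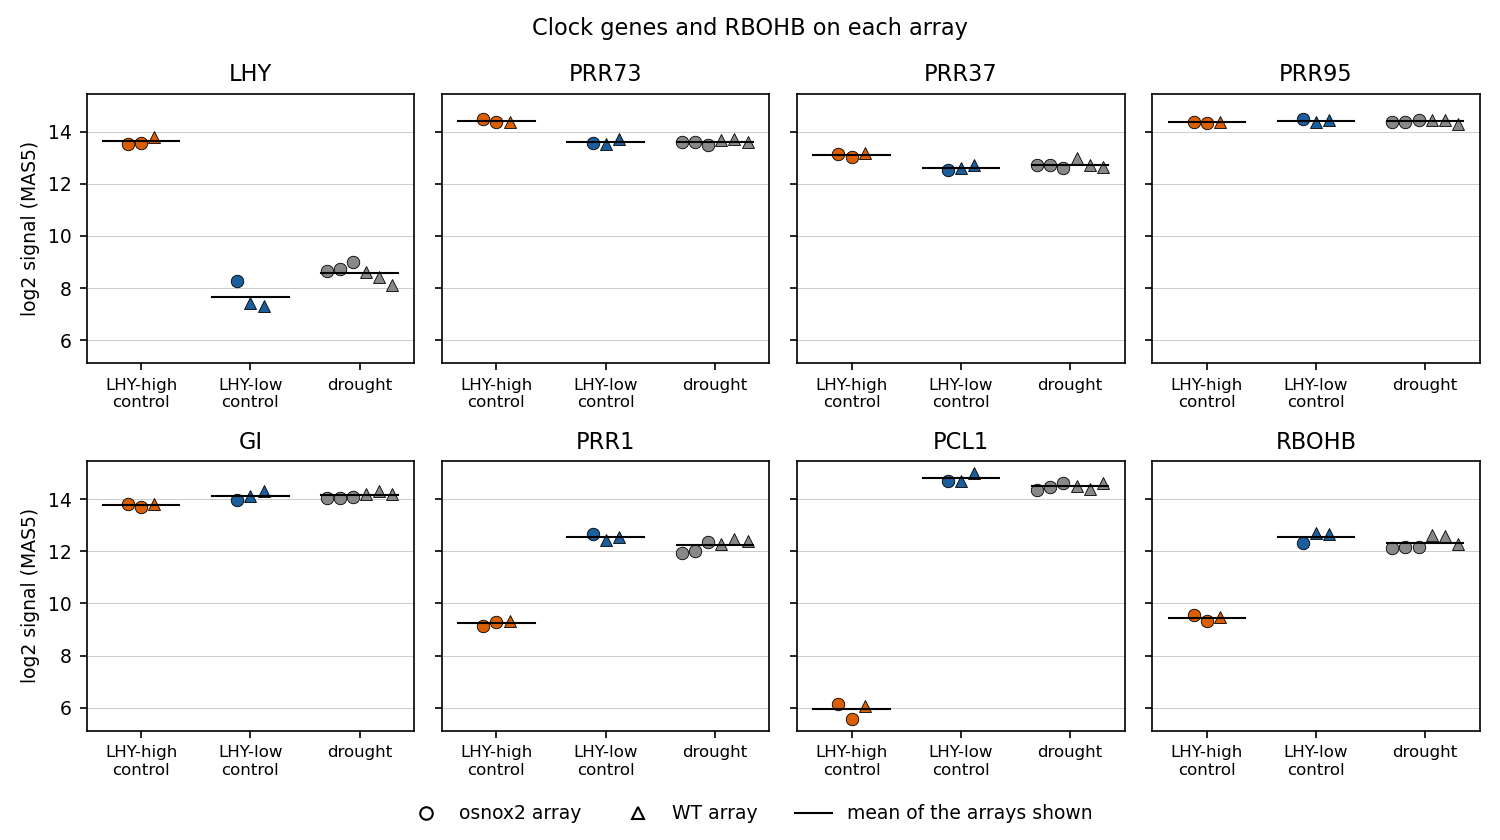
Log2 MAS5 signal of 7 clock genes and RBOHB in every array: circles are osnox2 arrays, triangles WT arrays and black lines the mean of each set. PCL1 lay between 5.59 and 6.16 in the LHY-high arrays, against 14.68 to 14.99 in the LHY-low and 14.33 to 14.62 in the drought arrays.

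Across the whole array, 5513 of 32012 probe sets (17.2%) were higher and 8227 (25.7%) lower in the LHY-high arrays without overlap. By a gap of at least 1, 1022 probe sets (3.19%) were higher and 1448 (4.52%) lower. The excess of lower probe sets depends on scaling, since 1164 were higher and 1211 lower after centring on array medians, and 1160 were higher and 1184 lower after quantile normalization. Among genes without overlap, centring likewise turned 2909 higher and 4653 lower into 3270 and 3328. The same rule applied to osnox2 against WT left 77 higher and 57 lower under control and 132 higher and 55 lower under drought. These counts are not on one footing with those of the LHY sets, which were sorted by a measured transcript. Under control each genotype holds arrays of both LHY sets, so probe sets that separate the LHY sets overlap between genotypes. Correlations over all probe sets were 0.932 to 0.954 within the LHY-high arrays and 0.943 to 0.959 within the LHY-low arrays, and 0.881 to 0.888 between the sets. The first principal component of the 6 arrays, with 51.7% of the variance, placed the LHY-high arrays at 95.4 to 101.0 and the LHY-low arrays at -92.2 to -101.6. The median of all probe sets differed by -0.12 between the sets, which centring on array medians brought to -0.01. Leaf transcripts were bright in both sets, as for RBCS, the small subunit of Rubisco, with 14.30 to 14.70 in the LHY-high arrays and 14.32 to 14.64 in the LHY-low arrays. Of 14 genes listed for tissues other than leaf 5 passed the filter on low values, 1 higher and 1 lower without overlap, with a median difference of 0.07 that was -0.04 after quantile normalization. Among these HOS58 (13.28 to 13.56) and OSH45 (11.34 to 11.92) were bright in all control arrays, so the list cannot show whether other tissue was present. In bulk leaf RNA, fewer cells of a type and less RNA per cell cannot be told apart.

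Among genes higher in the LHY-high arrays, FRO1, a ferric-chelate reductase, had the widest gap by each gene's brightest probe set, at 7.47. It read 13.33, 13.46 and 13.32 in the LHY-high arrays, against 5.06, 5.85 and 5.39 in the LHY-low arrays. SWEET2B, of the SWEET family of sugar transporters, read 12.01, 12.14 and 13.06 in the LHY-high arrays, against 5.19, 5.69 and 4.35 in the LHY-low arrays. In the LHY-low arrays both stood about at the array medians of 5.08 to 5.43, where MAS5 values are imprecise, and with an offset of 64 added to the signal the differences of 7.94 for FRO1 and 7.33 for SWEET2B were 6.63 and 5.79. The dimmer probe set of SWEET2B differed by 9.04 with a gap of 7.87, wider than that of FRO1, and its LHY-low mean of 3.15 lay below the array medians. MRS2-A, a magnesium transporter, was bright in both sets, with 13.46, 13.38 and 13.44 in the LHY-high arrays and 8.60, 8.83 and 8.75 in the LHY-low arrays. The remaining genes of the 12 with the widest gaps upwards were IMCEL2, PIP2-4, BGLU22, AMT1-1, BGLU36, HSFB2A, CKX11 and HEMB besides LHY, with gaps of 3.55 to 5.25. IMCEL2 lay below the array medians in the LHY-low arrays, and with an offset of 64 its difference of 6.08 was 2.77. The widest among genes known by a locus identifier only were 6.70 for LOC4337941, 6.63 for LOC4342135 and 6.39 for LOC4339759.

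Among genes lower in the LHY-high arrays, SAPK9, a SnRK2 protein kinase of the family that acts in abscisic acid and osmotic stress signalling, came next after PCL1. It read 7.14, 7.20 and 6.91 in the LHY-high arrays, against 13.33, 13.29 and 13.39 in the LHY-low arrays. HSFC1B, a class C heat stress factor, read 6.00, 5.23 and 4.30 in the LHY-high arrays, against 11.25, 11.55 and 11.61 in the LHY-low arrays. Its LHY-high values lay around the array medians, and with an offset of 64 its difference of -6.3 was -4.82. RBOHB, a plasma membrane NADPH oxidase that makes superoxide, read 9.55, 9.32 and 9.48 in the LHY-high arrays, against 12.31, 12.70 and 12.66 in the LHY-low arrays. It is the single NADPH oxidase matched by name here, and its difference of -3.10 was -2.87 in osnox2 and -3.20 in WT. The others of the 12 were TIP4-1, Cht2, PYRB, PRR1, SUS1, SAPK7, Hd1 and FH5, with gaps of 2.44 to 3.65. The locus identifiers LOC4331855 and LOC4337388 each had a gap of 8.55 and LOC4348520 one of 6.87. In the LHY-high arrays LOC4331855 and LOC4337388 stood near or below the array medians. With an offset of 64 their differences, each -10.24, were -7.44 for LOC4331855 and -7.82 for LOC4337388.

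**Figure D2:**
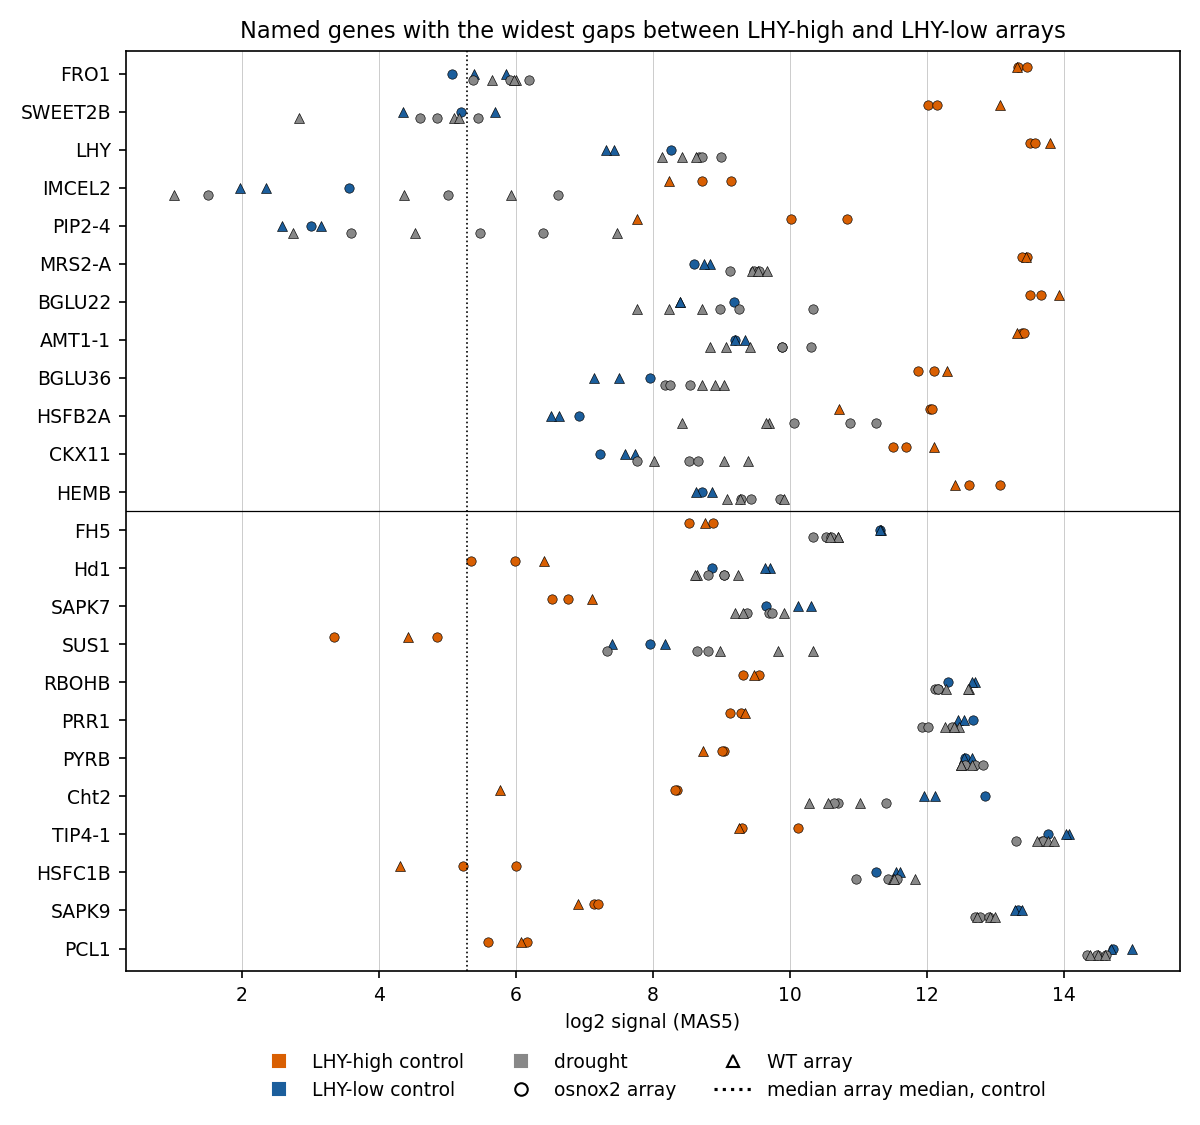
Log2 MAS5 signal in every array for the 12 named genes with the widest gap upwards (above the line) and the 12 with the widest gap downwards (below it) in LHY-high (orange) against LHY-low (blue) control arrays, with drought arrays in grey. The dotted line is the median of the control array medians, 5.28, and FRO1 in the LHY-low arrays and PCL1 in the LHY-high arrays both lie close to it.

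Genes of pigment synthesis and light capture were more often higher than lower in the LHY-high arrays. Of 14 measured chlorophyll genes, 7 were higher and 2 lower without overlap, with a median difference of 0.40, beside -0.13 over all genes. Among all genes 18.9% were higher and 30.2% lower without overlap, the shares to hold beside the counts of this and the following lists. For counts after centring on array medians, the values over all 15392 genes were 3270 higher and 3328 lower. HEMB, the porphobilinogen synthase early in the tetrapyrrole pathway, read 13.06, 12.61 and 12.41 in the LHY-high arrays, against 8.71, 8.63 and 8.86 in the LHY-low arrays. CAO, which makes chlorophyll b from chlorophyll a, read 14.05, 14.16 and 13.65 in the LHY-high arrays, against 10.30, 10.14 and 10.11 in the LHY-low arrays. CHLH, a subunit of magnesium chelatase, differed by 2.75 and CHLP, the geranylgeranyl reductase, by 2.17. NYC1, which starts the breakdown of chlorophyll b, ran the other way, with 11.53, 11.72 and 11.76 in the LHY-high arrays against 13.26, 13.63 and 13.67 in the LHY-low arrays. NOL, its partner in that breakdown, was higher by 0.42, so the breakdown genes did not lie on one side.

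Of 8 carotenoid genes, 6 were higher and 1 lower without overlap, with a median difference of 1.04. PSY2, a phytoene synthase at the entry of the pathway, read 13.63, 13.48 and 12.97 in the LHY-high arrays, against 8.63, 9.65 and 9.98 in the LHY-low arrays. ABA1, the zeaxanthin epoxidase, read 13.53, 13.54 and 13.49 in the LHY-high arrays, against 12.18, 12.03 and 12.19 in the LHY-low arrays. PDS, the phytoene desaturase, was the lower member, by 0.42, and after centring no carotenoid gene was lower. PSAG, a photosystem I subunit, read 13.52, 13.51 and 13.70 in the LHY-high arrays, against 9.98, 10.11 and 10.22 in the LHY-low arrays. Differences were smaller for the chlorophyll a/b-binding proteins of the antenna. RCABP89 read 15.10, 15.06 and 14.83 in the LHY-high arrays and 14.19, 13.71 and 14.01 in the LHY-low arrays, a difference of 1.03. CAB2R read 15.69, 15.47 and 15.32 in the LHY-high arrays and 15.00, 14.94 and 15.20 in the LHY-low arrays, a difference of 0.45, and RCABP69 and GOS5 overlapped. Of 5 light harvesting and photosystem genes 3 were higher and none lower, and after centring on array medians all 5 were higher. The blue-light receptors PHOT2 and PHOT1A were higher by 0.84 and 0.66, and the red-light receptors PhyB, PHYA and phyC lower by 0.66, 0.57 and 0.30. After centring on array medians 2 of these 3 phytochromes overlapped.

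In carbon metabolism 2 of 4 measured genes of carbon fixation had a gap of at least 1, both upwards, as had 3.72% of all genes. RCAA1, Rubisco activase, read 15.62, 15.39 and 15.42 in the LHY-high arrays, against 13.16, 13.31 and 13.43 in the LHY-low arrays. PPDKB, a pyruvate phosphate dikinase, differed by 2.25. Starch and sucrose genes were divided, with 12 of 38 higher and 9 lower without overlap, where 18.9% were higher and 30.2% lower among all genes. The median difference of the starch and sucrose genes, -0.06, turned to 0.05 after centring on array medians. SPS2, a sucrose-phosphate synthase, read 11.20, 11.23 and 10.76 in the LHY-high arrays, against 7.74, 8.56 and 8.61 in the LHY-low arrays. SUS1, a sucrose synthase, read 4.84, 3.35 and 4.42 in the LHY-high arrays, below the array medians, against 7.95, 8.17 and 7.40 in the LHY-low arrays. SPS2, which makes sucrose phosphate, and SUS1, which cleaves sucrose, lay on opposite sides. SS2 (a starch synthase, 2.14) and GBSS1 (the granule-bound starch synthase, 1.61) were also higher in the LHY-high arrays, and TPP1, a trehalose-phosphate phosphatase, and SWEET4 differed by -2.29 and -1.85.

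Nitrogen and water transport genes were more often higher than lower, where 18.9% were higher and 30.2% lower among all genes. Of 14 nitrogen genes, 6 were higher and 2 lower without overlap, with a median difference of 0.57. AMT1-1, an ammonium transporter, read 13.39, 13.41 and 13.31 in the LHY-high arrays, against 9.19, 9.34 and 9.20 in the LHY-low arrays. NIA1, nitrate reductase, read 12.29, 12.53 and 12.24 in the LHY-high arrays, against 9.59, 10.35 and 10.34 in the LHY-low arrays. The cytosolic glutamine synthetases GLN1-2 and GLN1-1 differed by 2.08 and 1.71, while the ammonium transporter AMT3-3 and the glutamate synthase GLT2 were lower by 1.38 and 1.09. Of 21 water channels, 9 were higher and 2 lower, with a median difference of 0.76. PIP2-4, a plasma membrane aquaporin, read 10.02, 10.83 and 7.76 in the LHY-high arrays, against 3.01, 3.16 and 2.58 in the LHY-low arrays, and with an offset of 64 its difference of 6.62 became 3.54. PIP2-1 read 14.10, 14.18 and 13.57 in the LHY-high arrays, against 10.26, 11.28 and 11.32 in the LHY-low arrays. TIP4-1, a tonoplast aquaporin, was the exception with a wide gap, at 10.12, 9.30 and 9.25 in the LHY-high arrays against 13.77, 14.07 and 14.03 in the LHY-low arrays.

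All 4 measured genes of pyrimidine synthesis were lower in the LHY-high arrays, a list drawn up after PYRB had been seen. PYRB, aspartate carbamoyltransferase, read 8.73 to 9.03 in the LHY-high arrays, against 12.55, 12.54 and 12.65 in the LHY-low arrays. DHOase, the next enzyme of the pathway, read 6.26, 5.75 and 5.37 in the LHY-high arrays, against 8.84, 8.83 and 8.61 in the LHY-low arrays. UMPS1 and UMPS2, the UMP synthases that end it, differed by -1.46 and -0.42. In the flowering list Hd1, the rice orthologue of CONSTANS, read 5.34, 5.99 and 6.41 in the LHY-high arrays, against 8.86, 9.71 and 9.64 in the LHY-low arrays. DTH8, a subunit of the NF-Y factor that acts on heading date, read 6.62, 6.73 and 6.16 in the LHY-high arrays, against 8.21, 9.01 and 9.13 in the LHY-low arrays. Of 14 flowering genes 3 were higher and 3 lower, and the florigen gene Hd3a overlapped.

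Of 10 SnRK2 kinases, 5 were lower and 2 higher, beside 30.2% lower and 18.9% higher among all genes. After centring on array medians 4 were lower and 4 higher, beside 3328 lower and 3270 higher of all 15392 genes. SAPK7 read 6.52, 6.76 and 7.11 in the LHY-high arrays, against 9.65, 10.31 and 10.11 in the LHY-low arrays. SAPK10 differed by -1.61, SAPK6 by -1.22 and SAPK2 by -0.53, while SAPK4 and SAPK1 were higher by 0.53 and 0.49. PP2C phosphatases, the family that includes the SnRK2 inhibitors, were divided, with 14 of 54 higher and 18 lower. Of 6 abscisic acid genes 3 were higher and 1 lower. BZIP23, an abscisic acid response factor, read 11.19, 11.32 and 11.07 in the LHY-high arrays and 9.10, 9.95 and 9.94 in the LHY-low arrays, and ABA8OX1, an abscisic acid 8'-hydroxylase, differed by -2.70 with a gap of 0.05.

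Of 30 jasmonate genes, 13 were lower and 3 higher, with a median difference of -0.44, where lower genes also outnumber higher ones among all genes (30.2% and 18.9%). JAZ13, a repressor of jasmonate responses, read 5.14, 4.19 and 7.77 in the LHY-high arrays, against 9.17, 10.86 and 9.16 in the LHY-low arrays. JAZ12 differed by -2.21, JAZ9 by -3.74 with a gap of only 0.04, and JAZ4 was higher by 1.05. After centring on array medians 9 jasmonate genes were lower and 4 higher, beside 3328 lower and 3270 higher of all 15392 genes. Of 9 ethylene genes 4 were lower and none higher, led by the receptor ERS2 at 7.83, 7.38 and 6.17 in the LHY-high arrays against 9.31, 9.99 and 9.79 in the LHY-low arrays. Auxin genes were divided, with 12 of 46 higher and 13 lower, and SAUR39, a small auxin-up RNA, differed by -2.52. Of 27 cytokinin genes, 9 were higher and 8 lower, and after centring 10 were higher and 4 lower, beside those same centred counts over all genes. CKX11, a cytokinin oxidase that degrades the hormone, read 11.70, 11.51 and 12.10 in the LHY-high arrays, against 7.23, 7.73 and 7.59 in the LHY-low arrays. LOGL10, of the LOG family that activates it, read 7.39, 7.96 and 6.98 in the LHY-high arrays, against 10.34, 10.99 and 10.66 in the LHY-low arrays, and LOGL6 differed by -2.80, while LOGL7 of that family was higher by 1.67. GA20OX2, the gibberellin 20-oxidase known as the semi-dwarf gene, was higher by 1.93, and 2 of 10 gibberellin genes were higher and 2 lower.

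Heat stress factors and heat shock proteins held 15 higher and 4 lower of 42, with a median difference of 0.29. Among all genes 18.9% were higher and 30.2% lower. HSFB2A, a class B factor, read 12.04, 12.07 and 10.71 in the LHY-high arrays, against 6.92, 6.63 and 6.51 in the LHY-low arrays. The small heat shock protein HSP18.6 read 11.46, 11.26 and 11.39 in the LHY-high arrays, against 7.41, 7.75 and 7.19 in the LHY-low arrays. HSP24.1 read 13.14, 13.14 and 10.98 in the LHY-high arrays, so that the WT array lay well below the osnox2 arrays, against 9.27, 8.35 and 8.27 in the LHY-low arrays. Of 66 calcium sensors and their kinases, 22 were higher and 18 lower, beside the same 18.9% and 30.2% among all genes. CBL4, a calcineurin B-like calcium sensor, read 10.17, 10.27 and 9.70 in the LHY-high arrays, against 6.60, 6.64 and 6.53 in the LHY-low arrays. CIPK1, CIPK5 and CIPK31, kinases that such sensors bind, were higher by 2.71, 2.78 and 2.76. CPK24, a calcium-dependent kinase, was lower, at 8.90, 8.70 and 8.80 in the LHY-high arrays against 11.50, 11.18 and 11.29 in the LHY-low arrays.

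Other lists showed no gap of 1. Genes that scavenge reactive oxygen held 3 higher and 4 lower of 13, with CAT-B, a catalase, at 11.35, 11.36 and 11.77 in the LHY-high arrays and 12.09, 12.35 and 12.27 in the LHY-low arrays. Ribosomal protein genes held 1 higher and 4 lower of 23, all with gaps of at most 0.15. After quantile normalization 12 of them were lower, beside 4271 of all 15392 genes. Cell division genes held 3 higher and 15 lower of 36, where 18.9% were higher and 30.2% lower among all genes. After centring on array medians 5 cell division genes were higher and 10 lower, beside 3270 higher and 3328 lower of all 15392 genes. PCNA, the DNA polymerase clamp, read 9.52, 9.49 and 9.56 in the LHY-high arrays and 10.23, 10.34 and 10.29 in the LHY-low arrays. Of 5 late embryogenesis and dehydrin genes, LIP9 alone did not overlap, by a gap of 0.22.

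**Figure D3:**
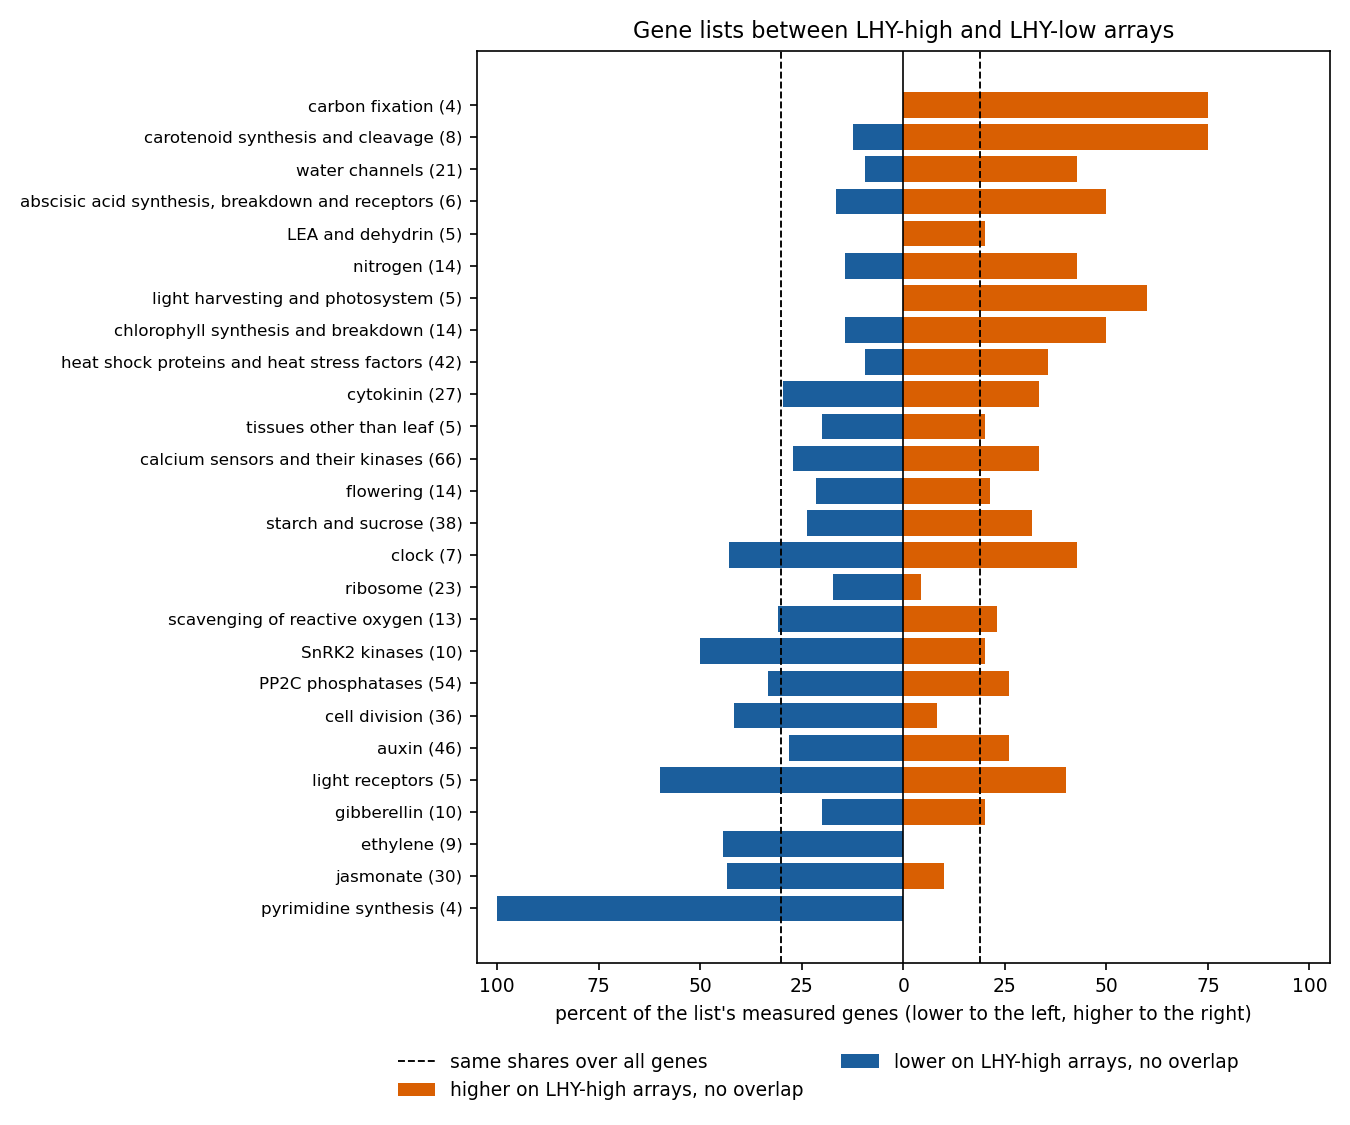
Share of each list's measured genes (number in brackets) that was higher (orange, to the right) or lower (blue, to the left) in the LHY-high than in the LHY-low arrays without overlap, ordered by the list's median difference. The dashed lines mark 18.9% higher and 30.2% lower over all genes, and heat shock genes (15 higher and 4 lower of 42) and jasmonate genes (3 higher and 13 lower of 30) lie on opposite sides.

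Both genotypes were present in both sets, so the difference could be taken in each from arrays that they do not share. Over all 32012 probe sets the difference in osnox2 (mean of replicates 1 and 2 minus replicate 3) and that in WT (replicate 1 minus the mean of replicates 2 and 3) had a Pearson correlation of 0.491 across probe sets, which are not independent replicates. Among probe sets higher by a gap of at least 1 the median difference was 2.35 in osnox2 and 2.20 in WT, and among those lower it was -2.16 in osnox2 and -2.24 in WT. That all of them have one sign in both genotypes follows from the choice of a gap. PCL1 differed by -8.84 in osnox2 and -8.76 in WT, SAPK9 by -6.16 in osnox2 and -6.43 in WT, FRO1 by 8.34 in osnox2 and 7.70 in WT, and LHY by 5.28 in osnox2 and 6.42 in WT.

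**Figure D4:**
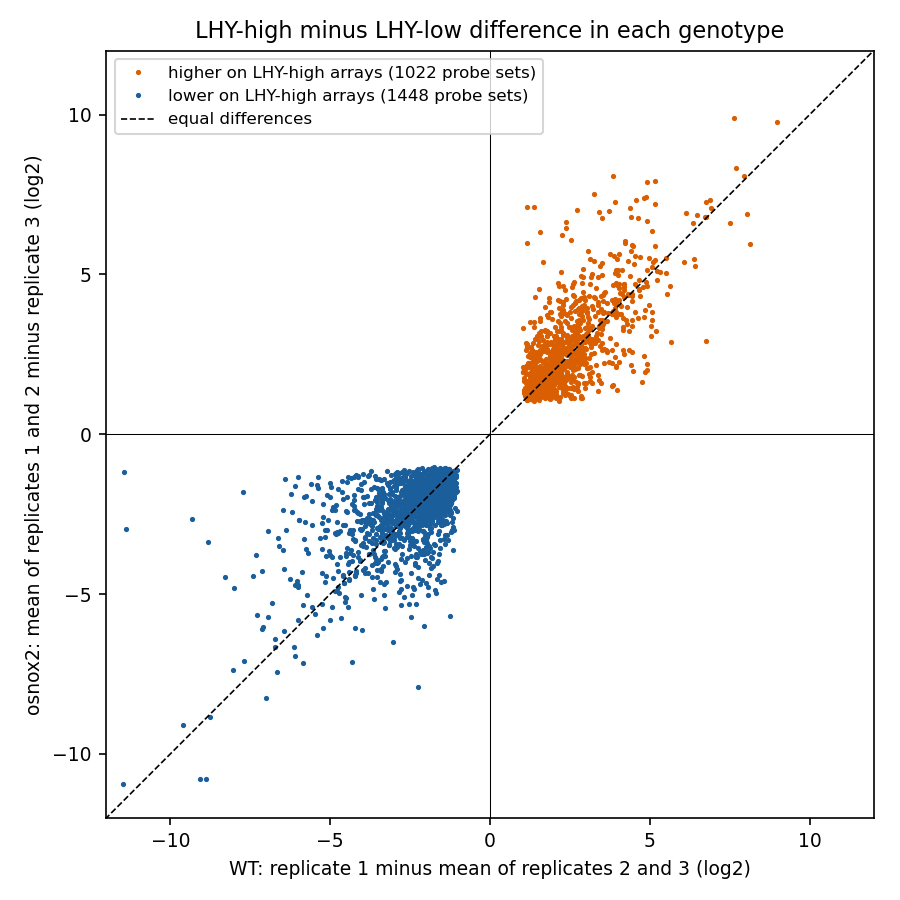
LHY-high minus LHY-low difference (log2) in WT on the horizontal axis and in osnox2 on the vertical axis, for 1022 probe sets higher (orange) and 1448 lower (blue) by a gap of at least 1, with equal differences on the dashed line. Medians were 2.35 in osnox2 and 2.20 in WT for the higher probe sets and -2.16 in osnox2 and -2.24 in WT for the lower ones.

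Whether the difference between the sets was unequal in osnox2 and WT was tested with limma as an interaction, which the choice of arrays by LHY does not fix. At an adjusted p under 0.05, 1109 of 32012 probe sets passed (3.46%), with the difference more positive in osnox2 for 875 (2.73%) and more negative for 234 (0.731%). This split depends on scaling: with arrays centred on their medians the median interaction moved by -0.39, and 437 were more positive and 617 more negative. Of the 2470 probe sets with a gap of at least 1, 83 (3.36%) were among the 1109, beside 3.46% over all probe sets. A gap requires one sign in both genotypes, which limits the interactions that can occur there, so nothing is read from these shares. Of the 6 clock genes other than LHY, which the rule used, none passed limma's interaction test after adjustment and 0 had an unadjusted p under 0.05. The interaction was -0.08 ± 0.32 (SE) for PCL1 with limma's adjusted p of 0.934 and -0.31 ± 0.25 for PRR1 with 0.578. It was 0.32 ± 0.22 for RBOHB with 0.496.

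The cells WT LHY-high and osnox2 LHY-low hold a single array each, assumed to vary like the others, and the named genes with the largest interactions follow single arrays or pairs. Pi21, a rice blast resistance locus that encodes a proline-rich protein, read 11.63 and 11.59 in osnox2 LHY-high arrays and 10.46 in the osnox2 LHY-low array. In WT it read 5.03 in the LHY-high array and 12.90 and 12.94 in the LHY-low arrays (interaction 9.03 ± 0.94, limma adjusted p 0.0015). LAC7 (a laccase, 8.58), KS6 (kaurene synthase-like, 7.41), RAB16C (a dehydrin, 6.01) and CHS1 (chalcone synthase, 6.00) had the same form, since WT control replicate 1, the single WT LHY-high array, was the lowest of all 12 arrays for each of the 5. KS6 and RAB16C were dim there, at 1.20 and 2.38, and with an offset of 64 the interaction was 2.73 for KS6 and 2.57 for RAB16C, which then missed the threshold (limma adjusted p 0.0934). CML31, a calmodulin-like protein, read 11.03 and 11.31 in osnox2 LHY-high arrays and 14.02 in the osnox2 LHY-low array. In WT it read 13.30 in the LHY-high array and 12.95 and 12.16 in the LHY-low arrays (interaction -3.60 ± 0.76, limma adjusted p 0.0364). CML15 (-3.21), APX7 (a chloroplast ascorbate peroxidase, -2.94), SAP11 (a zinc finger stress protein, -2.92) and GRXS5 (a glutaredoxin, -2.45) also passed, and osnox2 replicates 1 and 2 were the lowest arrays of the 12 for CML31, CML15, APX7 and SAP11. SAP11 passed under 6 and GRXS5 under 11 of 20 alternatives.

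Of 21 water channels 3 passed the interaction test, all more positive in osnox2, where 3.55% of all genes were called more positive and 1.05% more negative. PIP2-2 read 14.13 and 14.36 in osnox2 LHY-high arrays and 11.70 in the osnox2 LHY-low array, with 12.92 in the WT LHY-high array and 12.34 and 12.30 in the WT LHY-low arrays (1.95 ± 0.24, limma adjusted p 0.00302). TIP1-1 (1.83 ± 0.28, limma adjusted p 0.00919) and TIP2-2 (2.04 ± 0.30, limma adjusted p 0.00795) were the others, and the 3 kept adjusted p values of 0.0297, 0.0377 and 0.0186 when arrays were centred. The median interaction of the 21 was 1.31, beside -0.04 over all genes. Of 42 heat shock genes 4 passed, all more positive in osnox2 as most calls were under this scaling, namely HSP18.0, HSP18.8 (2.16), HSP18.1 (2.73) and HSFB2C (1.60), and HSFB2C missed the threshold when centred, with limma's adjusted p at 0.109. Of 38 starch and sucrose genes 5 passed, all more positive, among them the sugar transporter SWEET2A (4.03 ± 0.54, limma adjusted p 0.00513), and SSI2 missed the threshold when centred (limma adjusted p 0.387).

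Genotype was compared within the sets, as the mean over both of osnox2 minus WT, because the LHY-high set holds 2 osnox2 arrays and 1 WT array. At limma's adjusted p under 0.05, 332 of 32012 probe sets passed (1.04%), of which 243 (0.759%) rose and 89 (0.278%) fell in osnox2. METK3, an S-adenosylmethionine synthetase, read 7.53 and 7.77 in osnox2 against 9.85 in WT within the LHY-high set, and 6.76 in osnox2 against 9.46 and 9.07 in WT within the LHY-low set. It fell by 2.35 ± 0.24 (limma adjusted p 0.00297), and within both sets every osnox2 array lay below every WT array. JAZ2 read 6.15 and 5.52 in osnox2 against 9.32 in WT within the LHY-high set, and 6.44 in osnox2 against 9.34 and 8.82 in WT within the LHY-low set (-3.06 ± 0.46, limma adjusted p 0.0170). CLA1, the first enzyme of the plastid isoprenoid pathway, differed within the LHY-high set, where it read 12.42 and 12.27 in osnox2 and 8.12 in WT. Within the LHY-low set it read 8.43 in osnox2 and 8.28 and 8.21 in WT, so that the mean of 2.20 ± 0.23 (limma adjusted p 0.00318) rests on the LHY-high arrays.

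TUB6, a beta-tubulin (2.39 ± 0.38), and Pir7b, an esterase gene of the defence response (2.14 ± 0.35), also rose, and Pir7b passed under 14 of 20 alternatives. MADS16, a floral MADS-box gene (-1.58 ± 0.21), and XBOS36, a RING-type ubiquitin ligase (-1.50 ± 0.14), fell, and the limma adjusted p values of these 4 genes were at most 0.0247. WT control replicate 1, the single WT LHY-high array, was the lowest of all 12 arrays for TUB6 (7.13) and Pir7b (5.18). It was the highest for XBOS36 (11.51). No fit without that array could be made, so how far these differences rest on it was not tested. Further named genes are dim: CH6 (2.74), KS6 (1.98) and CPK21 (-4.33) passed, and with an offset of 64 their differences were 0.88, 0.10 and -0.56. Of 42 heat shock genes 5 rose and 1 fell, where 0.929% of all genes rose and 0.377% fell, and their median was 0.22 beside -0.03 over all genes. For HSP18.0, HSP24.1 and HSP26.2 the rise was larger within the LHY-high set, where WT is a single array. HSP18.0 read 11.89 and 11.95 in osnox2 against 9.82 in WT within the LHY-high set, and 10.99 in osnox2 against 10.40 and 10.39 in WT within the LHY-low set (1.35 ± 0.08, limma adjusted p 0.000156). HSP17.9B was the one that fell, by 0.91 ± 0.15 (limma adjusted p 0.0276), and HSP81-1 and CLPB-M missed the threshold when arrays were centred, with limma adjusted p at 0.117 and 0.0663. Of the 6 clock genes other than LHY none passed limma's genotype test after adjustment, and 0 had an unadjusted p under 0.05. RBOHB differed by -0.21 ± 0.11 (limma adjusted p 0.460).

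The 6 drought arrays, which played no part in forming the sets, were closer to the LHY-low arrays. Their correlations were 0.868 to 0.895 with the LHY-high arrays and 0.918 to 0.942 with the LHY-low arrays. LHY read 8.13 to 8.99 under drought with a median of 8.65, PCL1 14.33 to 14.62 with a median of 14.49, and PRR1 11.92 to 12.47 with a median of 12.31. Of the 2470 probe sets with a gap of at least 1, all 6 drought arrays lay nearer to the LHY-low mean for 1621 (65.6%) and nearer to the LHY-high mean for 53 (2.15%), and the arrays were divided for 796 (32.2%). On a scale from 0 at the LHY-low mean to 1 at the LHY-high mean, the drought mean had a median of 0.11. FRO1 read 5.37 to 6.19, PYRB 12.49 to 12.81, SAPK9 12.70 to 12.99 and RBOHB 12.11 to 12.61 under drought, each near its LHY-low values. The 3 clock genes, 5 chlorophyll genes and 7 starch and sucrose genes with a gap of at least 1 all had the 6 drought arrays nearer to the LHY-low mean. The same held for 983 of all 1312 genes with such a gap, and LHY was placed by the rule, so nothing is read from these list counts.

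Heat shock genes were placed otherwise, since of 6 with a gap of at least 1 all drought arrays were nearer to the LHY-low mean for 1, HSFC1B, and nearer to the LHY-high mean for 3. Of all 1312 genes with such a gap, named or not, these numbers were 983 and 30. HSP18.6 read 10.17 to 11.05 under drought with a median of 10.92, below its LHY-high values of 11.26 to 11.46 and above its LHY-low values of 7.19 to 7.75. HSP24.1 read 10.63 to 12.57 and HSFA2C 8.87 to 10.22 under drought. Among all genes with a name, 8 had a gap of at least 1 with all drought arrays nearer to the LHY-high mean. The other 5 were HOX24 (a homeodomain-leucine zipper factor), GST-I, BZIP23, GER6 and LOGL10. BZIP23 read 10.83 to 12.28 under drought, reaching above its LHY-high values of 11.07 to 11.32, and LOGL10 read 7.18 to 8.76, against 10.34 to 10.99 in the LHY-low arrays.

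**Figure D5:**
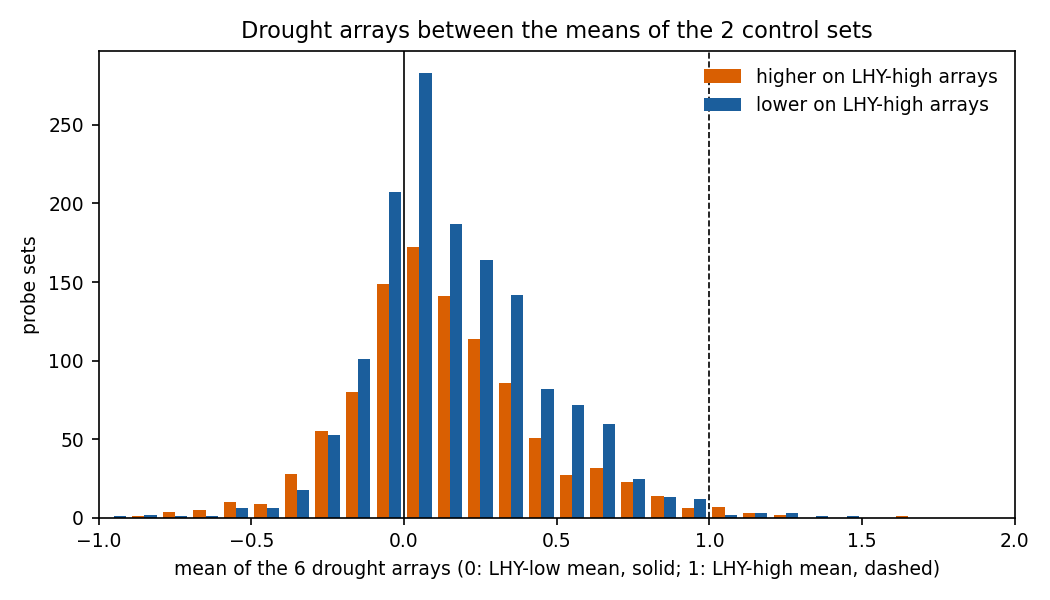
Number of probe sets with a gap of at least 1 by the place of the mean of the 6 drought arrays, on a scale with the LHY-low mean at 0 (solid line) and the LHY-high mean at 1 (dashed line), for probe sets higher (orange) and lower (blue) in the LHY-high arrays. The median place was 0.10 for the higher and 0.12 for the lower probe sets, and 4 probe sets lie off the axis.

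Over the 12 arrays, the named genes whose signal was most like that of PCL1 were SAPK9 (Pearson r 0.997), PYRB (0.996), TIP4-1 (0.993), PRR1 (0.991) and RBOHB (0.990), of 2118 compared. For PRR1 they were SAPK9 (0.995), PCL1 (0.991), RBOHB (0.988), Aconitase (0.987) and TIP4-1 (0.985). For LHY they were ISPG (0.993), RMR2 (0.991), PAP2 (0.991), Trx03 (0.988) and MTP3 (0.987). ISPG, an enzyme of the plastid isoprenoid pathway, read 14.12, 14.13 and 14.25 in the LHY-high arrays, against 12.05, 12.12 and 12.07 in the LHY-low arrays and 12.09 to 12.45 under drought. Trx03 read 14.90, 14.82 and 14.77 in the LHY-high arrays, against 12.78, 12.55 and 12.59 in the LHY-low arrays. Such coefficients rest largely on 3 arrays set against 9, and they share every array.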

How the data were processed

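RNA was measured on Affymetrix rice arrays. The deposited log2 values were made by the authors with MAS5, per the submitters' processing notes (version not given there), and were used without further normalization: unlogged, their mean without the lowest and highest 2% was 497 or 498 on every array. No detection calls were used. Precision is set by how few arrays there are. The 64 reporter probe sets were dropped and of 57194 others, 32012 were kept, those that exceeded the array median in 3 or more of 12 arrays. Probe sets were named through GEO's platform annotation and assembly ASM3414082v1, whose positions are given: 22436 had 1 gene, 95 several and 34663 none. Each gene is represented by its brightest probe set.

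Members and gene lists were chosen with earlier results of these data known, and lists hold only genes whose annotated name matches. Named are the 12 genes per direction with the widest gap, 3 locus identifiers per direction, all clock genes, up to 4 per other list (further list members were chosen after their values were seen), the 5 largest changes per direction of each test, and the 5 genes most like each of LHY, PCL1 and PRR1. Interaction and genotype were tested two-sided with limma 3.58.1 in R 4.3.3 (lmFit, eBayes with an intensity trend, Benjamini-Hochberg adjustment) on 12 arrays in 6 cells with 6 residual degrees of freedom, after a check on simulated data. P values cover the spread between these samples, which is estimated mostly from the drought arrays. The WT LHY-high and osnox2 LHY-low cells, with a single array each, add nothing to that estimate. Plots used Python 3.11.15 and matplotlib 3.10.9. Alternatives changed the filter, an offset, the scaling, the trend, the arrays in the fit, a replicate block and the fold.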

Additional observations from a re-analysis of the deposited data

Results flagged for a closer look

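For 10 named genes the difference between LHY-high and LHY-low arrays was unequal in osnox2 and WT by limma's interaction test. It was more positive in osnox2 for Pi21 (9.03), LAC7 (8.58), KS6 (7.41), RAB16C (6.01) and CHS1 (6.00), and more negative for CML31 (-3.60), CML15 (-3.21), APX7 (-2.94), SAP11 (-2.92) and GRXS5 (-2.45), all as log2 differences. The WT LHY-high and osnox2 LHY-low arms hold 1 array each. For Pi21, LAC7, KS6, RAB16C and CHS1 the single WT LHY-high array, WT control replicate 1, was the lowest of all 12, and a fit without it could not be made, so how far these values rest on that array was not tested.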

How the results depend on the processing

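The 1022 probe sets higher and 1448 lower by a gap of at least 1 became 364 and 374 with a gap of at least 2. The lower count was 742 with a filter at the 75th percentile and 778 with an offset of 64. Leaving out each control array gave 1118 to 1505 higher and 1684 to 2035 lower. A gap can only stay or widen when an array is left out, so these counts could not fall. All 6 drought arrays lay nearer to the LHY-low mean for 54.4% to 73.0% of probe sets. Of 112 named probe sets without overlap, 106 kept their direction under all 9 alternatives checked. Leaving out an array or adding an offset cannot make separated sets overlap, so only centring and quantile normalization could lower this count. The 1109 interaction calls became 734 with no filter, 596 without the trend, 1769 with the 6 well-watered arrays alone and 734 with a replicate block, and 448 to 1494 with an array left out: 555 without osnox2 control replicate 1, 588 without 2, 448 without WT control replicate 2 and 484 without 3. Neither the interaction nor the genotype test could be fitted without WT control replicate 1 or osnox2 control replicate 3, whose cells hold a single array. The 332 genotype calls became 167 without the trend, 188 with a fold of at least 2, 269 with a replicate block, and 123 to 470 with an array left out: 151 without osnox2 control replicate 1, 171 without 2, 219 without osnox2 drought replicate 2, 123 without WT control replicate 2, 135 without 3 and 214 without WT drought replicate 2. Over the 10 named calls of each test, the threshold was lost in 40 of 199 refits for the interaction and 43 of 197 for genotype. With the replicate block, limma's adjusted p was 0.0774 for SAP11 and 0.0785 for GRXS5 (interaction), and 0.0547 for Pir7b, 0.0630 for CH6 and 0.0747 for CPK21 (genotype). Residuals of same-numbered arrays from the 4 group means correlated from -0.251 to 0.368. They still hold the LHY split: control pairs within a set gave 0.342 and 0.368, and the control pair across the sets gave -0.251. These correlations therefore cannot decide on pairing. The numbers were not taken to pair the samples because the labels do not say that they mark a pot. The cause of these changes was not tested.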
